A study of Mus musculus with 2 samples.

Results

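The genes described here encode the subunits and assembly factors of the mitochondrial respiratory chain and of ATP synthase. They were taken by name from the GENCODE vM21 annotation of mouse assembly mm10, as the protein-coding genes whose symbol starts with Nduf, Sdh, Uqcr or Atp5, or with Cox followed by a digit. This gave 106 of the 21728 protein-coding genes on the autosomes and X. By complex there were 46 genes of complex I (Nduf), 8 of complex II (Sdh), 8 of complex III (Uqcr), 27 of complex IV (Cox) and 17 of complex V, the ATP synthase (Atp5). In all, 85 of them encode subunits and 21 encode assembly factors.

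EP300, a histone acetyltransferase and coactivator found at active promoters and enhancers, was profiled in liver of B6NCrl mouse embryos aged 14.5 days by ChIP-seq, the sequencing of DNA pulled down with an antibody to the protein. The 2 libraries, replicates 1 and 2, formed 1 group, with no other tissue, age, genotype or treatment to compare. Per the labels, it was pulverized liver of mixed sex, pooled over multiple dissections, and both libraries carry the same biosample label, so the spread between them may be technical. The measurements were the authors' peak lists: 300000 peaks for each library, and 17055 reproducible peaks in the optimal list of the irreproducible discovery rate (IDR) procedure, which is used here unless another list is named.

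The respiratory chain passes electrons from NADH and succinate to oxygen and pumps protons across the inner mitochondrial membrane, and ATP synthase uses that gradient to make ATP. Complex I oxidizes NADH, complex II oxidizes succinate as part of the tricarboxylic acid cycle, complex III passes electrons to cytochrome c and complex IV reduces oxygen. The nuclear genes of these complexes are expressed in nearly all cells, and textbook accounts place NRF1, GABPA (an ETS family factor), YY1 and the estrogen-related receptors (ERR) among the factors that act on them. In the fetal liver, which makes red blood cells at this age, erythroblasts use mitochondria for heme synthesis and lose them as they mature.

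EP300 lay at the promoters of some of these genes, with sequence features that differed from gene to gene. The 4 strongest promoter peaks that could be shown outside annotated untranslated regions were those of Atp5b, Cox11, Ndufaf8 and Ndufa4. Each sequence is at most 75 bp to either side of the peak summit, on the strand of the named gene, from the GRCm38 (mm10) genome: Atp5b at chr10:128083113-128083263, plus strand; Cox11 at chr11:90638085-90638172, plus strand; Ndufaf8 at chr11:120098732-120098872, plus strand; and Ndufa4 at chr6:11907543-11907693, minus strand. Capitals mark matches, on either strand, to the motifs searched: in Atp5b CCAAT boxes and a GATA motif, in Cox11 the palindromic CGCG element of housekeeping promoters, in Ndufaf8 CCAAT boxes, an SP motif and an E-box, and in Ndufa4 a GATA motif.
Atp5b: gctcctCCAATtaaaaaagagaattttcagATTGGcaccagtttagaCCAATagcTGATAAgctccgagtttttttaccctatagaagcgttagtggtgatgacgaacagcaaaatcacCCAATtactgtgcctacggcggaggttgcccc
Cox11: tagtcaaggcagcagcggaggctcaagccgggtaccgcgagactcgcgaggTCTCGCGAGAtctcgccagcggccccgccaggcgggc
Ndufaf8: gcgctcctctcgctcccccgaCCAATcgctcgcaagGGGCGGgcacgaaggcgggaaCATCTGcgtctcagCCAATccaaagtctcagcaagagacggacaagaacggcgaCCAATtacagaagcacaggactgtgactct
Ndufa4: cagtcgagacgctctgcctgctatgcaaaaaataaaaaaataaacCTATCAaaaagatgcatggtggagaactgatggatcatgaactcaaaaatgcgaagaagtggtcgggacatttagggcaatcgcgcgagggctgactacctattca

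The next 4 promoter windows carry an NRF1, ERR or ZNF143/THAP11 motif, of which NRF1 and ERR belong to the textbook factors named above. Capitals mark the NRF1 motif in Ndufa11 (chr17:56717686-56717766, plus strand) and in Ndufs5 (chr4:123718249-123718399, minus strand), where a GATA motif and an E-box also overlap each other. They mark the ERR motif and a CCAAT box in Atp5g3 (chr2:73911327-73911452, minus strand) and the ZNF143/THAP11 motif in Ndufv1 (chr19:4012815-4012965, minus strand).
Ndufa11: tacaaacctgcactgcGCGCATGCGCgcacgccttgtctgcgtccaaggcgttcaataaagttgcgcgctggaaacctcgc
Ndufs5: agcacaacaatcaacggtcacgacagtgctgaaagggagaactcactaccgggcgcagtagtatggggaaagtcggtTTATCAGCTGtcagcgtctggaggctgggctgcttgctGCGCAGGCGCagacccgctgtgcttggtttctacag
Atp5g3: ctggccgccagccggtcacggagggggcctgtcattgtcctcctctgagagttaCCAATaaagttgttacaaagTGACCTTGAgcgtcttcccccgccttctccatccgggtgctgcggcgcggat
Ndufv1: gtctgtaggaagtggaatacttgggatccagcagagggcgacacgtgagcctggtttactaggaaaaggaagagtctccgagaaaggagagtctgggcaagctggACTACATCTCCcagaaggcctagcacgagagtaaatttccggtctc

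Of the 5 strongest peaks between 1 and 20 kb from a member, the 4 outside coding exons are shown next, each with GATA motifs. They lie near Ndufa6 (chr15:82342017-82342167, minus strand), Cox5a (chr9:57505895-57506045, plus strand), Atp5e (chr2:174453790-174453940, minus strand) and Cox6b2 (chr7:4747617-4747767, minus strand). Capitals mark GATA motifs in all 4, E-boxes in Cox5a and KLF1 motifs in Atp5e and Cox6b2. Another coding gene has the nearer transcription start site (TSS) in every one of them.
Ndufa6: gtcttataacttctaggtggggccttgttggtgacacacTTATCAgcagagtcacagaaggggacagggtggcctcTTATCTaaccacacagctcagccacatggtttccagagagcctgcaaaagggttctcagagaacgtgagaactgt
Cox5a: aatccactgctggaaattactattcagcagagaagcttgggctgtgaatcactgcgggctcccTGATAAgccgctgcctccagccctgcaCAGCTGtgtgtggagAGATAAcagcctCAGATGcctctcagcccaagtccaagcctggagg
Atp5e: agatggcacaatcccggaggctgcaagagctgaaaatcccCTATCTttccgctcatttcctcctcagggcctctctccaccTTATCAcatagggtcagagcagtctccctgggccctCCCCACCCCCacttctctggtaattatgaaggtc
Cox6b2: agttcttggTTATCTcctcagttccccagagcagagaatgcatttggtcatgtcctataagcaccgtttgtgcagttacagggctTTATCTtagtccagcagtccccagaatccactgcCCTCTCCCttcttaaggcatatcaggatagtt

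Ndufb7 and Ndufs3, in contrast, were the coding genes nearest to the last 2 distal windows shown, at chr8:83562741-83562891, plus strand and chr2:90894067-90894217, minus strand. Capitals mark GATA motifs in both, a CCAAT box in Ndufb7, and KLF1, AP-1/NFE2 and E-box motifs in Ndufs3.
Ndufb7: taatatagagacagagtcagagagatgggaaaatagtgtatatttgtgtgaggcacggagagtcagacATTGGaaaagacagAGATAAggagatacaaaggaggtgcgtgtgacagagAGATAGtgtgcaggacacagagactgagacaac
Ndufs3: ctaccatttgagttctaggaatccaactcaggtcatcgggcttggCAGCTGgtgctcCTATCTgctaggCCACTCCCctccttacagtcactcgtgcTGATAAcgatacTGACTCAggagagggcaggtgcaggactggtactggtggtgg

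The labelled tissue was checked through peaks near marker genes. All 7 erythroblast markers had a peak within 20 kb of a TSS, with a median strongest signal of 241.3, and 5 of 7 hepatocyte markers had one, with a median of 20.4. None of 5 macrophage, 4 stellate and mesenchymal or 3 neuronal markers had one, and 1 of 4 endothelial markers did. Of all coding genes 38.6% had one, and these counts of 0 allow shares of up to 60%, 75% and 100%. Within 1 kb, 6 of 7 erythroblast and 0 of 7 hepatocyte markers had a peak, against 15.5% of all coding genes. Peak signal is the value the authors gave each peak and ranks peaks within a list. In the optimal list it ran from 5.20 to 570.3 with a median of 38.5. In a mixed tissue, peaks carried by fewer cells and weaker binding per cell cannot be told apart.

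By count, EP300 summits lay near respiratory chain and ATP synthase genes more often than near coding genes at large. Of the 106 genes, 27 (25.5%, 95% Wilson interval 18.1 to 34.5) had an optimal peak whose summit lay no more than 1 kb from a TSS, against 15.5% of all protein-coding genes. Within 20 kb, 55 (51.9%, interval 42.5 to 61.2) had one, against 38.6% of all protein-coding genes. Within 50 kb, 74 of the 106 (69.8%) had one, against 53.7% of all protein-coding genes. Of the 51 genes without a peak within 20 kb, 32 also had none within 50 kb. A summit near any annotated TSS of a gene counted, and members had a median of 4 TSSs, against 3 for all coding genes. The part this plays in the shares was not tested. With a single group and no control condition, these shares were compared as counts, without a test.

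**Figure D1:**
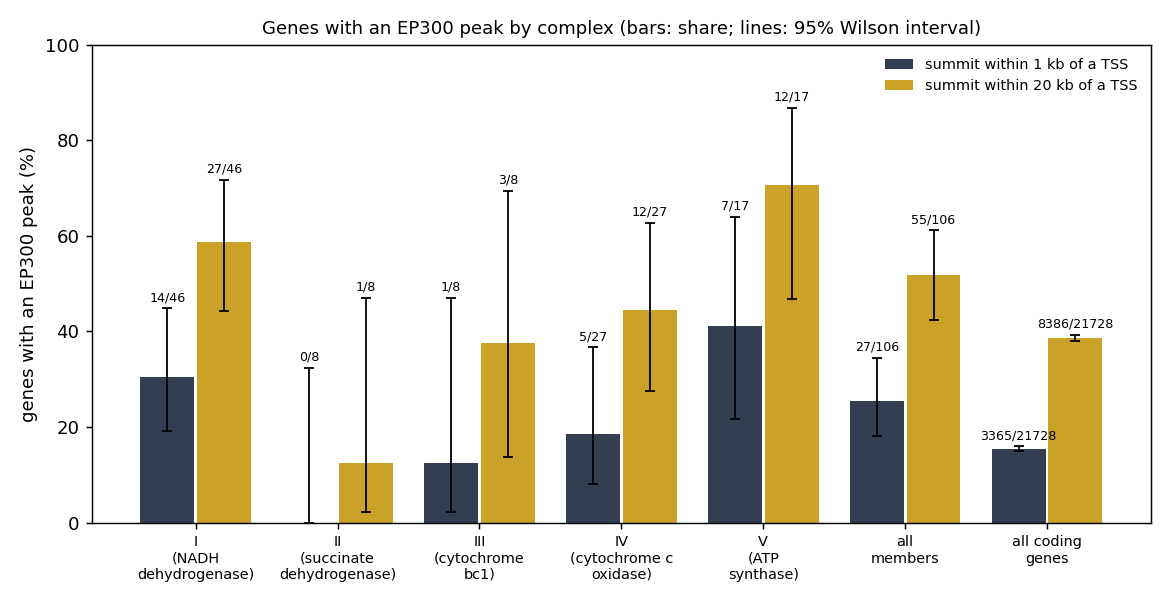
Percent of genes with an optimal EP300 peak at most 1 kb (dark bars) or 20 kb (gold bars) from a TSS, by complex, for all 106 members and for all 21728 protein-coding genes; lines are 95% Wilson intervals and labels give the counts. Complex V has the tallest bars and complex II the lowest, and the intervals of the small complexes are wide.

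The higher share within 20 kb was not there in 2 other ways of counting. With each peak given to its nearest coding gene alone, promoter peaks included, 29 members had one (27.4%), against 27.2% of all protein-coding genes. With peaks at any annotated promoter left out, 27 members had one within 20 kb (25.5%), against 26.7% of all. Members lay in gene-dense surroundings: 41 of the 106 (38.7%) had the TSS of another coding gene within 1 kb, against 14.6% of all coding genes. Among those 41, 13 (31.7%) had a promoter peak, against 31.3% of all coding genes with such a neighbour. Among the 65 members without one, 14 (21.5%) did, against 12.8%.

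Peaks near these genes had about the strength seen near coding genes at large. The strongest peak within 20 kb had a median signal of 59.7 over the 55 members with a peak and 56.8 over all coding genes with one. Within 1 kb the medians were 42.3 and 36.0. Most members with a peak had few: 25 had 1 peak within 20 kb, 21 had 2, 6 had 3 and 3 had at least 4. The share with at least 4 was 5.45%, against 18.7% of all coding genes with a peak.

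**Figure D2:**
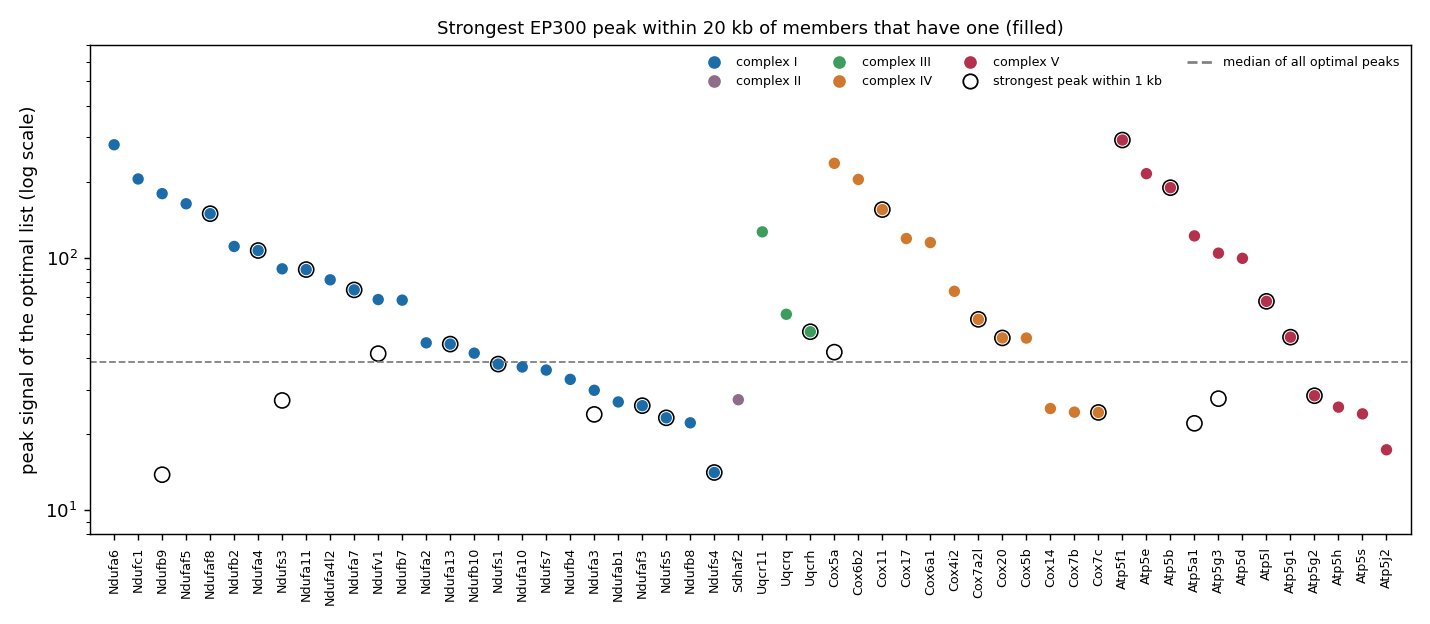
Signal in the optimal list (log scale) of the strongest peak within 20 kb of 54 of the 55 members that have one (filled, coloured by complex) and of its strongest peak within 1 kb (open circles); the dashed line is the median of all optimal peaks, 38.5. In 19 of the 54 genes drawn the open circle surrounds the filled point, so the strongest peak is the promoter peak.

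ATP synthase genes had the highest shares with a peak among the 5 complexes, with intervals that overlap those of the other complexes. Of 17 genes, 7 (41.2%, interval 21.6 to 64.0) had one within 1 kb, against 15.5% of all coding genes. Within 20 kb, 12 did (70.6%, 46.9 to 86.7), against 38.6%. The strongest peak of the whole gene set was at Atp5f1, which encodes subunit b of the stalk that holds the catalytic head still. Its summit lay inside the annotated gene, 47 bp upstream of the nearest of the Atp5f1 TSSs. The peak had a signal of 293.0 in the optimal list, 146.5 (rank 519) in the list of replicate 1 and 150.6 (rank 488) in that of replicate 2. The peak, at chr3:105959215-105959464, was also at the promoter of Wdr77, with a TSS of that gene 46 bp from the summit. Wdr77 encodes a partner of the arginine methyltransferase PRMT5. Both libraries thus placed it at a similar rank.

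Atp5b encodes the catalytic beta subunit of the F1 head and had the second promoter peak by signal. Its signal was 189.7 in the optimal list, 80.7 (rank 1798) in replicate 1 and 108.9 (rank 1138) in replicate 2, with the summit 85 bp upstream of the TSS. Its window, printed above, has CCAAT boxes on either side of the GATA motif, and no other coding TSS lay within 1 kb. Atp5a1, the gene of the other large F1 subunit, alpha, had a weak promoter peak and a stronger peak in its gene body. The promoter signal was 22.1 in the optimal list and 19.2 in replicate 1, and no summit of replicate 2 lay within 100 bp. The internal peak, in a coding exon 2084 bp downstream of a TSS, had 122.1 in the optimal list, 58.7 in replicate 1 and 61.4 in replicate 2, with a GATA motif.

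All 3 genes of the c subunit, whose ring turns as protons pass, had a promoter peak, Atp5g1 with 48.5, Atp5g2 with 28.4 and Atp5g3 with 27.6. Their signals in replicate 1 were 31.6, 23.6 and 21.1. In replicate 2 they were 12.0 for Atp5g1 and 8.85 for Atp5g3, and Atp5g2 had no summit within 100 bp. The best replicate 2 summit within 1 kb of Atp5g2 had 10.4. These peaks of Atp5g1 and Atp5g3 were therefore lower in replicate 2 than in replicate 1, on lists with own scales whose medians were 4.17 and 4.50. A second promoter peak of Atp5g1, with 30.3 in the optimal list, had 12.4 in replicate 1 and 11.9 in replicate 2. Atp5g3 had a second, stronger peak of 104.3 at the promoter of Atf2, 17829 bp away. Atp5l, which encodes subunit g of the membrane part, had a promoter peak of 67.2 in the optimal list, 36.4 in replicate 1 and 31.7 in replicate 2.

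The small F1 subunits epsilon (Atp5e) and delta (Atp5d) had peaks only beyond 1 kb. Those near Atp5e had 215.6, 41.1 and 16.4, the first in an intron of Tubb1, the beta-tubulin gene of platelets, 10184 bp away. That first peak had 92.2 in replicate 1 and 124.8 in replicate 2. The peak near Atp5d, 99.5, lay at the promoter of the kinase gene Stk11, 14337 bp away, with 48.0 and 52.0 in the libraries. For both genes, then, the assigned peak was nearer to another gene. No optimal peak lay within 50 kb of Atp5c1 (the gamma subunit), of Atp5j (stalk factor F6) or of Atp5o (stalk subunit OSCP).

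Complex V promoters stood higher in replicate 1. Of 15 ATP synthase genes with some summit within 1 kb in both library lists, the best one ranked higher in replicate 1 for 13, with median ranks of 8653 in replicate 1 and 25205 in replicate 2. Over all members this was so for 44 of 69 (63.8%) and over all protein-coding genes for 4555 of 8852 (51.5%). Its relation to the peak counts of complex V was not tested.

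Complex I was the largest complex, with 46 genes. Of these, 14 (30.4%, interval 19.1 to 44.8) had a peak within 1 kb, against 15.5% of all coding genes. Within 20 kb, 27 did (58.7%, 44.3 to 71.7), against 38.6%. Among the 7 nuclear core subunits, which carry the flavin and iron-sulfur clusters, 4 had a promoter peak and 5 a peak within 20 kb. The promoter signals included 41.7 at Ndufv1, 37.9 at Ndufs1 and 27.2 at Ndufs3, around the median of the list. In replicate 1 these peaks had 25.5, 18.3 and 9.24, and in replicate 2 they had 15.7, 17.6 and 14.9. Ndufs7 had peaks in introns of Dazap1 alone. Of the 30 supernumerary subunits, which surround the core, 8 had a promoter peak (26.7%, interval 14.2 to 44.4). A peak within 20 kb was found for 18 (60%, 42.3 to 75.4).

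The strongest complex I promoter peaks were at Ndufaf8 and Ndufa4. Ndufaf8, an assembly factor gene, had 149.6 in the optimal list, 71.0 in replicate 1 and 79.2 in replicate 2, and its summit was 131 bp upstream, nearer to the divergent gene Tepsin. Ndufa4 had 106.9, with 60.5 and 44.4 in the libraries; its protein was first assigned to complex I and is now known in complex IV. Next came Ndufa11 with 89.8, 42.2 and 47.4, and Ndufa7 with 74.6, 27.5 and 41.3, both supernumerary subunit genes. All 4 had another coding TSS within 1 kb, those of Tepsin, Phf14, Vmac and the ribosomal protein gene Rps28. The weakest complex I promoter peaks were at Ndufs4 (14.1) and Ndufb9 (13.8), and no summit of either library lay within 100 bp of the one at Ndufb9.

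Beyond 1 kb, the strongest complex I peaks were nearer to other genes. The 280.6 peak near Ndufa6, a supernumerary subunit gene, was 9115 bp away at the promoter of Pheta2, with 140.1 in replicate 1 and 138.2 in replicate 2. Ndufc1 lay 18510 bp from a peak of 205.4 in a coding exon of Mgarp, which encodes another mitochondrial protein, with 96.0 and 110.3 in the libraries. The strongest peaks of Ndufb9 (179.6), Ndufaf5 (163.8) and Ndufb2 (110.9) lay in introns of Tatdn1, Esf1 and Adck2. Ndufa1 and Ndufa12 were among the 11 complex I subunit genes without a peak within 50 kb. Of the complex I subunit genes 71.1% had one within 50 kb, against 53.7% of all coding genes.

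Complex II had few peaks within 20 kb, over too few genes to set it apart from the rest. None of its 8 genes had a peak within 1 kb (0 of 8, which allows a share of up to 37.5%), against 15.5% of all coding genes, and 1 (12.5%, interval 2.24 to 47.1) had one within 20 kb, against 38.6%. That gene was Sdhaf2, whose product helps attach flavin to the catalytic subunit. Its peaks of 27.4 and 11.8 lay 1415 and 2426 bp downstream of a TSS, in its own intron and exon, and both held a GATA motif. The first had 12.4 in replicate 1 and 11.3 in replicate 2, and the second had 9.83 in replicate 1 and no summit in replicate 2 within 100 bp.

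The longer library lists held weak summits at most complex II promoters. At Sdha, the flavoprotein gene, the best summit within 1 kb had 7.96 (rank 21931) in replicate 1 and 10.6 (rank 16058) in replicate 2. At Sdhb, the iron-sulfur subunit gene, the values were 5.00 and 9.60. The membrane anchor genes had 5.60 and 4.24 (Sdhc) and 6.39 and 11.6 (Sdhd). All 4 subunit genes thus had a weak summit in both lists, and none of these entered the optimal list; of all coding genes, 40.7% had some summit within 1 kb in both lists. Of the assembly factor genes, Sdhaf2 had one in both (9.50 and 7.52), Sdhaf1 had one in replicate 2 alone (9.18), Sdhaf4 in replicate 1 alone (3.66) and Sdhaf3 in neither. Within 50 kb, Sdhaf3 and Sdhd had no optimal peak and the other 6 genes had one (75%), against 53.7% of all coding genes.

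Complex III had 1 of 8 genes with a promoter peak (12.5%) and 3 of 8 with one within 20 kb (37.5%), near the 15.5% and 38.6% of all coding genes. Uqcrh, the gene of the acidic hinge protein, had promoter peaks of 50.9 and 12.9 that it shared with Lrrc41. The stronger one had 17.0 in replicate 1 and 26.9 in replicate 2. Uqcrq, a small subunit gene, had peaks of 59.7 and 57.1 at 1052 and 2415 bp, both at the promoter of Gdf9. Uqcr11, a small subunit gene, was 15103 bp from a peak of 126.7 at the promoter of Tcf3, with 55.3 and 74.5 in the libraries. The core protein genes Uqcrc1 and Uqcrc2 had none within 20 kb, nor did Uqcrfs1 (Rieske protein), Uqcrb and Uqcr10.

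Complex IV had 5 of 27 genes with a promoter peak (18.5%, interval 8.18 to 36.7) and 12 (44.4%, 27.6 to 62.7) with one within 20 kb. The shares of all coding genes, 15.5% and 38.6%, lie inside both intervals. The strongest was at Cox11, an assembly factor gene for the copper centre, shared with Stxbp4. It had 155.3 in the optimal list, 82.0 (rank 1744) in replicate 1 and 67.2 (rank 2490) in replicate 2. Cox7a2l, which encodes a factor of supercomplex assembly, had 57.0, with 35.5 and 24.9 in the libraries. Cox20, which encodes a chaperone of the copper-binding subunit, had 3 promoter peaks of 48.1, 39.7 and 36.5. Cox5a, a subunit gene, had a promoter peak of 42.3 with 26.4 in replicate 1 and 12.4 in replicate 2, and Cox7c, another subunit gene, had 24.4.

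The strongest distal peak of complex IV was 15304 bp from Cox5a and nearer to Rpp25, with 236.9 in the optimal list, 113.8 in replicate 1 and 119.7 in replicate 2. Cox17, the gene of a copper chaperone, had a peak of 119.2 in its own exon 1350 bp downstream of a TSS, with 55.0 and 60.4 in the libraries and a GATA motif. Cox10 and Cox15, which act in making heme a, were among the 11 complex IV genes without a peak within 50 kb. Of the complex IV genes 59.3% had one within 50 kb, against 53.7% of all coding genes.

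The alternative or tissue-restricted isoforms are encoded by 8 genes. None had a promoter peak (which allows a share of up to 37.5%), against 15.5% of all coding genes, and 3 had a peak within 20 kb (37.5%), against 38.6%. Of the pair Cox4i1 and Cox4i2, the widely expressed Cox4i1 had none within 20 kb. The isoform Cox4i2, known from lung, had 4, the strongest of 73.6 and the weakest of 5.41. These lay 12164 to 14818 bp from a TSS, and some were nearer to Id1. Like Cox4i1, Cox6b1 had none. The testis isoform Cox6b2 had 8 within 20 kb, from 25.7 to 204.5, of which 7 were nearer to Kmt5c, a histone methyltransferase gene. Cox6a1 had peaks of 114.9 and 31.1, nearer to Srsf9 and Gatc, and the muscle isoform Cox6a2 had none within 20 kb. Cox7a1, Cox7a2, Cox7b2, Cox8a, Cox8b and Cox8c had none within 20 kb, and Cox7b had 24.4 at the promoter of Atp7a. Ndufa4l2, a gene known as induced by hypoxia, had 81.8 in its own exon and 55.8 at the promoter of Shmt2, and none at its own promoter.

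The 101 peaks within 20 kb of a member fell into 3 kinds of place. A member's own promoter held 32, the promoter of another gene held 32, and 37 were at no annotated promoter, of which 14 were intronic, 14 intergenic, 2 in coding exons and 7 in other exons. Promoter summits lay a median of 110 bp from the TSS, and 26 of the 32 were upstream of it. No peak was within 20 kb of 2 members. At the edges of the windows, the Ndufb9 peak of 13.8 was just inside 1 kb, at 950 bp, the Uqcrq peak of 59.7 just outside, at 1052 bp, and a Cox5b peak of 48.1 just inside 20 kb, at 19964 bp. For 28 genes the peaks lay only between 1 and 20 kb, and in 19 of these genes another coding gene was nearer to every one. Of 19 peaks with a signal above 100, 5 were at a member's promoter and 14 farther away, and 12 of those 14 (85.7%) held a GATA motif. Of all 7799 peaks at no promoter within 20 kb of coding genes, 85.1% held one. These were taken at any signal, so the 2 shares are not like for like. Some of the 14 lay at promoters of other genes, and GATA was in 38.3% of all coding promoter peaks.

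**Figure D3:**
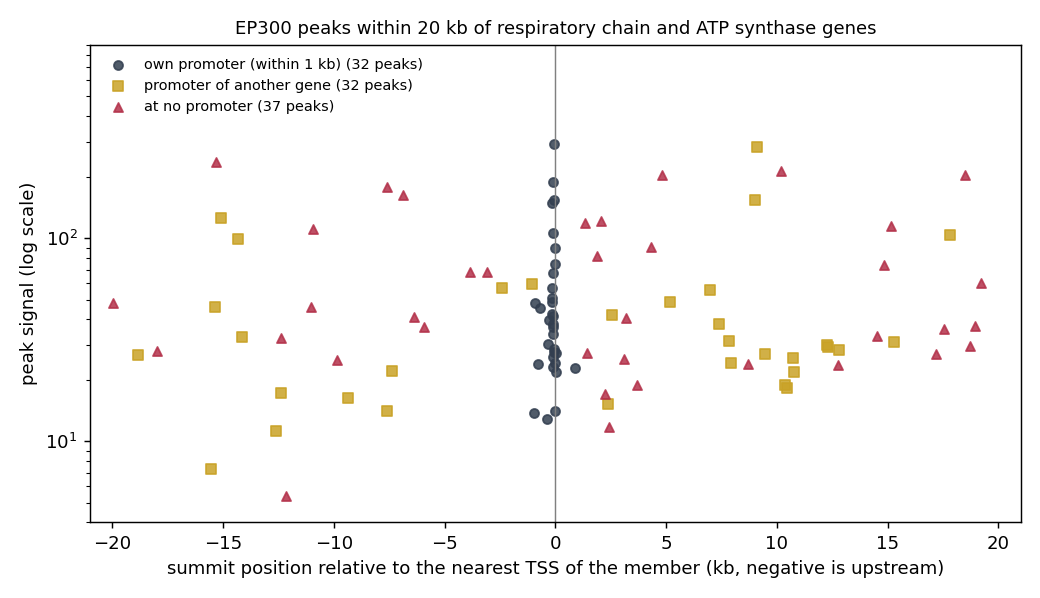
Signal in the optimal list (log scale) against position relative to the nearest TSS of the member (kb, negative upstream) for the 101 peaks, marked as own promoter (circles, 32), promoter of another gene (squares, 32) or no promoter (triangles, 37). Promoter peaks stand in a narrow column just upstream of the TSS, and peaks above a signal of 100 lie as far as 18510 bp from the TSS.

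Most peaks near these genes recurred in both libraries. Of the 101, 78 (77.2%, interval 68.1 to 84.3) had a summit of each library within 100 bp, against 82.1% of all peaks within 20 kb of coding genes. For the 32 promoter peaks it was 25 (78.1%), against 71.2% of all coding promoter peaks, and all 19 peaks above a signal of 100 recurred. The distance allowed moved this value: it was 44.6% at 25 bp and 97.0% at 250 bp. The longer library lists, taken at any rank and without matching summits between them, reached more promoters: of the 79 members without an optimal promoter peak, 43 (54.4%) had some summit within 1 kb in both library lists, against 30.2% of all coding genes without one. In 9 of the 79 neither list had any.

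**Figure D4:**
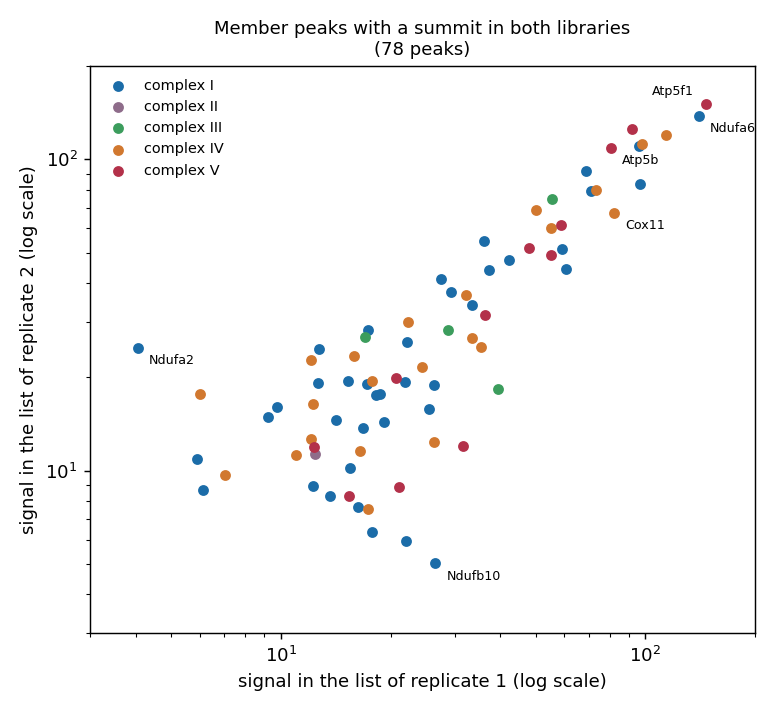
Signal in the list of replicate 2 against signal in the list of replicate 1 (both log scale, each list on its own scale) for the 78 member peaks with a summit in both, coloured by complex. Strong peaks such as those of Atp5f1, Ndufa6, Atp5b and Cox11 lie near one line, and weak ones scatter, with one Ndufa2 peak at 4.06 and 24.8 and an Ndufb10 peak at 26.6 and 5.03.

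NRF1 and YY1 motifs were found in few member promoter peaks, at a higher share than in coding promoter peaks in general. The search covered 100 bp to either side of each summit and both strands, and shares are given for the 32 member promoter peaks beside all 3923 coding promoter peaks. NRF1 was found in 4 (12.5%), against 2.85%, at Ndufa11, Ndufa13, Ndufs5 and Atp5g3. YY1 (AANATGGCG) was also found in 4 (12.5%), against 3.31%, at Ndufa7, Ndufs4, Uqcrh and Atp5g1. Within 50 bp of the summit NRF1 and YY1 were each in 2 of the 32 (6.25%), against 1.43% and 1.81%. The ETS motif (CCGGAAG) was in 4 (12.5%), against 10.3%, at Ndufa13, Ndufs3, Cox20 and Atp5a1. At least 1 of NRF1, ETS, YY1 and ZNF143/THAP11 was in 13 (40.6%), against 16.6%. ERR (TNAAGGTCA) was in 1, at Atp5g3, against 0.459%. CRE (TGACGTCA) was in none, which allows a share of up to 9.38%, against 1.71%. The printed windows of Ndufa11, Ndufs5 and Ndufv1 show these matches in place.

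Erythroid motifs were rarer at member promoter peaks than at coding promoter peaks in general. GATA, searched as AGATAA and AGATAG as well as TGATAA and TGATAG, was in 7 of the 32 (21.9%), against 38.3%, and KLF1 (CCNCNCCC) in 4 (12.5%), against 41.5%. SP (GGGCGG) was in 31.2%, against 34.5%, and CCAAT in 15.6%, against 26.0%. KLF1 and SP matches can overlap, as can GATA and E-box (CAGCTG or CAGATG) ones. The median GC content was 57.5% in member promoter peaks and 56.7% in all. Away from promoters, GATA was in 28 of 37 member peaks (75.7%), against 85.1% of the 7799 such peaks of coding genes. NRF1, ETS and YY1 were in none of the 37, which allows a share of up to 8.11%. They were rare in all 7799 peaks too, at 0.115%, 1.08% and 0.167%.

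**Figure D5:**
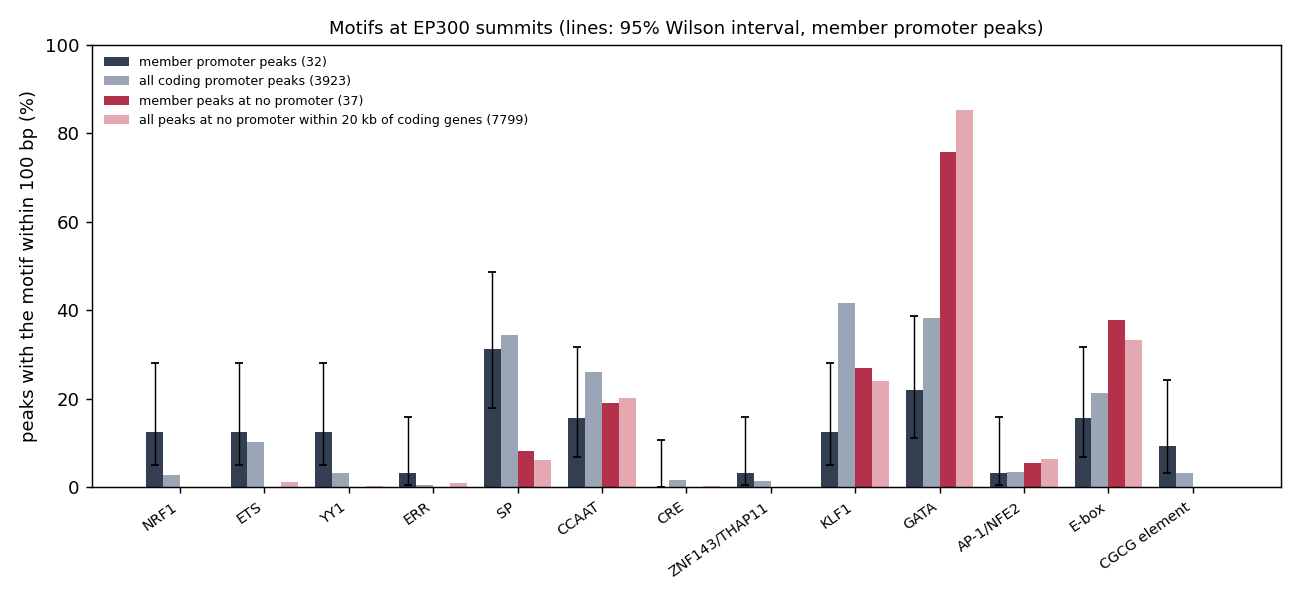
Percent of EP300 peaks with each motif within 100 bp of the summit, for member promoter peaks (dark, with 95% Wilson intervals), all coding promoter peaks (grey), member peaks at no promoter (red) and all such peaks within 20 kb of coding genes (pink). NRF1 and YY1 are each at 12.5% of member promoter peaks, and GATA is at 21.9% there and at 75.7% away from promoters.

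The same motifs were counted in RefSeq promoters (GRCm38.p6, from 250 bases before to 50 after the start), which matched 85 members and 16433 coding genes in all. NRF1 was in 24.7% of member promoters, against 7.48% of all, ETS in 30.6%, against 13.4%, and YY1 in 15.3%, against 3.83%. GATA was in 27.1%, against 28.6%, and KLF1 in 57.6%, against 60.4%. Among the members, NRF1 was in 4 of 22 promoters with an EP300 peak (18.2%) and in 17 of 63 without one (27.0%), and ETS in 5 of 22 (22.7%) and 21 of 63 (33.3%). YY1 was in 4 of 22 (18.2%) and 9 of 63 (14.3%), ZNF143/THAP11 in 3 of 22 (13.6%) and 4 of 63 (6.35%), and GATA in 9 of 22 (40.9%) and 14 of 63 (22.2%). These counts are small and describe letters in a window.

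Genes of 4 related pathway lists were counted in the same way, beside the 15.5% and 38.6% of all coding genes. Among 16 regulators of mitochondrial biogenesis, 6 (37.5%) had a promoter peak and 12 (75%) one within 20 kb. Nrf1 itself had 2 peaks of 31.0 and 27.2 inside the gene, and Esrra (ERR alpha) one of 116.7 at Gpr137 and one of 39.7. Gabpa, Ppargc1a (the coactivator PGC-1 alpha) and Tfam, the mitochondrial DNA packaging factor gene, had none within 50 kb. Of 19 genes for electron carriers and electron entry, 8 had a promoter peak (42.1%) and 11 one within 20 kb (57.9%), and Cycs (cytochrome c) had none. Of 29 further assembly factors, 6 (20.7%) and 17 (58.6%) did, led by Lrpprc with 326.0 and Uqcc2 with 303.0. Of 16 genes of the tricarboxylic acid cycle and pyruvate dehydrogenase, 4 (25%) and 9 (56.2%) did, with a promoter peak of 228.1 at Mdh2.

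Atpif1, the gene of the inhibitor that stops ATP synthase from running backwards and that is known for a role in erythroid heme synthesis, falls outside the name rule and had 3 peaks. The strongest, 202.4, lay in its own exon 2870 bp downstream of a TSS, held a GATA motif and had 106.6 in replicate 1 and 95.9 in replicate 2. Its promoter peak had 37.2, with 18.0 and 16.9 in the libraries. The strong peak is therefore inside the gene and not at its start, as at Atp5a1 and Cox17.

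Ribosomal protein genes, likewise widely expressed, had promoter peaks more often by count than the respiratory chain. Of 88 cytosolic ribosomal protein genes, 46 (52.3%, interval 42.0 to 62.4) had one within 1 kb and 65 (73.9%) within 20 kb. Of 78 mitochondrial ribosomal protein genes, 28 (35.9%, interval 26.1 to 47.0) and 45 (57.7%) did. The interval for cytosolic ribosomal protein genes does not overlap that of the respiratory chain and ATP synthase genes, 18.1 to 34.5, and the interval for mitochondrial ones does.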

How the data were processed

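EP300 ChIP-seq peaks were measured in 2 libraries, grouped by the antibody in the labels. Peak signal was deposited by the authors in narrowPeak lists on mm10, each on its own scale, as was the IDR score, which was read but not used for any result. According to the deposited file listings, a library's list was made from its own alignments and 1 control, and the pooled list from both libraries. The sources used here name no aligner, peak caller or threshold. Depth is unknown because the lists hold no read totals; Wilson intervals (95%) and limits for a count of 0 (3 counts) cover counting error only.

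Of the 17055 optimal peaks, the 17043 on autosomes and X were used. Summits were set against all GENCODE M21 TSSs with Python 3.11.15, pandas 2.3.3 and pysam 0.24.0; a peak within 1 kb of a TSS was a promoter peak. Simulated summits planted at 200 genes were all assigned to them. The members, lists, motifs and alternatives were chosen with earlier results of these data known. Named genes were, by complex, the 4 strongest within 1 kb, the 2 strongest among those with peaks only between 1 and 20 kb, the first 2 alphabetically without a peak within 50 kb, all of complex II, isoform pairs, and Cycs, Nrf1, Gabpa, Esrra, Ppargc1a, Tfam and Atpif1. Some genes are not reported here. Other names complete small counts or say where a peak lies and were picked after their values were seen. Alternatives changed the list, window, TSSs, gene assignment, members counted, motif window and replicate distance.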

Additional observations from a re-analysis of the deposited data

How the results depend on the processing

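The count of 27 members with a peak within 1 kb was 15 with peaks above the median signal and 14 of 65 among members without a coding neighbour within 1 kb. To leave a library out, the 17043 strongest peaks of the other library's own list were taken, without the IDR step. The count was then 32 without replicate 1 and 40 without replicate 2. It ran from 23 to 33 in the other settings. Against all coding genes the share of members was higher in every one of these settings. The count of 55 within 20 kb was 36 above the median signal, 35 within 5 kb and 29 with the nearest gene only; with distal peaks only it was 27, a difference of -1.23 percentage points from all genes (25.5% against 26.7%). It ran from 62 to 67 when each library was left out in turn. The median percentile of the strongest peak, 66.4, was 60.1 with the pooled list and ran from 54.4 without replicate 1 to 63.3 without replicate 2. Its difference from that of all genes was 1.53 points, and -2.40 in the conservative list, -3.47 in the pooled list and -8.68 without replicate 1, so the direction depended on the list. At member promoter peaks the ERR share was 0% in the conservative list, and within 50 bp the SP share was 15.6% and the KLF1 share 3.12%; NRF1 and YY1 each came to 6.25% there, from 12.5%, and all 23 values other than ERR, SP and KLF1 in these settings stayed inside their wide intervals. The share of peaks found in both libraries was 44.6% with summits within 25 bp and 97.0% within 250 bp. The cause of these shifts was not tested, beyond the smaller number of peaks or genes that a setting leaves. The CGCG element was added after seeing the data. No paired analysis was possible because the 2 libraries form 1 group. Unknown depth limits what the absence of a peak can show.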

Other observations

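The CGCG element, looked for after it was seen in the Cox11 window, was in 3 of the 32 member promoter peaks (9.38%), against 3.26% of all 3923 coding promoter peaks. The 3 were those of Atp5f1, Cox11 and Ndufa7, with signals of 293.0, 155.3 and 74.6, and each of these promoters is shared with another coding gene. The strong peak near Atp5g3 at the promoter of Atf2 (104.3) held it too. Over all coding genes, the 128 promoter peaks with the element had a median signal of 73.3, against 31.1 for all coding promoter peaks, and 37 of them (28.9%) had a signal above 100, against 12.2%. For comparison, the median was 43.8 for promoter peaks with a GATA motif and 28.1 for those with an NRF1 motif. The element was in 1 of the 7799 peaks away from promoters. In RefSeq promoters it was in 2 of the 85 members matched (2.35%), against 0.773% of all.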
